A study of Homo sapiens with 12 samples.

Results

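The genes TP63, TP73, MDM2, MDM4 and WRAP53, members and partners of the p53 pathway, were followed in 12 RNA-seq libraries of the human lung cancer lines H1703 and H1299. They were taken by gene symbol from the deposited count tables, where all 5 were found among 58302 genes. Each line was kept for 24 h with SAHA (vorinostat, an inhibitor of zinc-dependent histone deacetylases) or with its vehicle, 0.1% DMSO. The 4 groups, with 3 libraries each, were H1703 with SAHA, H1703 with DMSO, H1299 with SAHA and H1299 with DMSO. The treatment text lists SAHA at 0, 2.5, 10 and 40 µM and does not tie a dose to these libraries. Each line stands for 1 tumour. H1299 is known as a line that makes no p53 protein. No other genetic change is stated for either line. The labels do not say whether replicates were separate cultures, so their spread may be technical.

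p53, p63 and p73 are related transcription factors that bind similar DNA elements. Stress-activated p53 drives genes of cell-cycle arrest and apoptosis, p63 maintains squamous and basal epithelia, and p73 acts in neurons and multiciliated cells and can drive many p53 targets. MDM2 is a ubiquitin ligase that degrades p53 and is itself a p53 target, which closes a negative feedback loop. MDM4 (also MDMX) is its partner and blocks p53 activity. WRAP53 encodes TCAB1, which carries telomerase and other small RNAs to Cajal bodies.

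In the tables' GRCh38 coordinates TP63 lies at chr3:189631416-189897279, TP73 at chr1:3652520-3736201, MDM2 at chr12:68808176-68850686, MDM4 at chr1:204516379-204558120 and WRAP53 at chr17:7686071-7703502. Strands were taken from the GENCODE annotation, where all 5 genes lie on the plus strand. The counts are per whole gene, so separate promoters and isoforms of one gene are not resolved. MDM2 and TP73 each have upstream and internal starts in RefSeq. With SAHA MDM2 was lower in both lines and TP73 in H1299, the line where its counts allowed a test. For each gene 1 upstream and 1 internal window with a match are shown (RefSeq, GRCh38.p14, plus strand, 250 bases before to 50 bases after the start). Capitals mark a match to the E2F motif TTTCGCGC or TTTGGCGC on either strand in the upstream windows. In the internal windows they mark 2 adjoining 10-base units of the p53-family consensus, with at most 1 mismatch in each. These searches were chosen after the windows had been seen.
MDM2 upstream start, chr12:68807922-68808221: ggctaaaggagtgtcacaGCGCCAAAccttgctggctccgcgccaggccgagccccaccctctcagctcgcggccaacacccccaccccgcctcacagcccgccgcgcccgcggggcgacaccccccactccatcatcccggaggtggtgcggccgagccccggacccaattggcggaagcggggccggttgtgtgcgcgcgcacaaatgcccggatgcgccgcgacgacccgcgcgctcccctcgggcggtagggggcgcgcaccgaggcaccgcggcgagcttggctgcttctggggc
MDM2 internal start, chr12:68808767-68809066: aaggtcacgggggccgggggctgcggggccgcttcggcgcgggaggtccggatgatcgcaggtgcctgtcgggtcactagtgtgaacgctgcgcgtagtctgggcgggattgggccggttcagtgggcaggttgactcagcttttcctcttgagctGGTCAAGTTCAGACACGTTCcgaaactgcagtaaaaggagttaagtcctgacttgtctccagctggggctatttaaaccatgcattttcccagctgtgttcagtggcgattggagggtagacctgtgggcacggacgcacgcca
TP73 upstream start, chr1:3652266-3652565: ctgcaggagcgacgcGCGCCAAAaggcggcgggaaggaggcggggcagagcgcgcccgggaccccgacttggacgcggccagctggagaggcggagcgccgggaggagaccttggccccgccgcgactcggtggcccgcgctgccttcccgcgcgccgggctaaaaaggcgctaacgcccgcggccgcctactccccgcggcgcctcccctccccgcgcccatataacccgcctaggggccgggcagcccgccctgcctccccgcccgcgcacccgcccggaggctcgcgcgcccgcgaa
TP73 internal start, chr1:3690422-3690721: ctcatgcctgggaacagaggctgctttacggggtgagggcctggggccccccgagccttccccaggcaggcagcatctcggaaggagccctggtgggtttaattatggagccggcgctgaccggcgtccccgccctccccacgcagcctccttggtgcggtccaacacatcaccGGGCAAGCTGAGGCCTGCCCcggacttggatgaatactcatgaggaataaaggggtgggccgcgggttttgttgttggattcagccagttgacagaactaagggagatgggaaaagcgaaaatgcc

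The E2F motif was held by 403 of 35116 RefSeq start windows (1.15%), and the paired p53-family units by 136 (0.387%). A single exact unit, without mismatch, was held by 2329 windows (6.63%) and by no window of the 5 members. Of 4 MDM2 windows, which overlap in pairs, 2 held the E2F motif and 2 the paired units. Of 3 TP73 windows 1 held the E2F motif and 1 the paired units, and the other internal window, chr1:3697796-3698095, held neither. The windows of TP63 (1), MDM4 (1) and WRAP53 (3) also held neither. The matches describe the sequence and do not show binding.

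Total counts per library ran from 14.4M to 19.4M. Mitochondrially encoded genes took 9.57 ± 1.19% of counts in H1703 with SAHA and 5.88 ± 0.418% with DMSO, against 4.10 ± 0.121% in H1299 with SAHA and 2.12 ± 0.138% with DMSO (SD, n = 3). The 8 epithelial markers summed to 2960–3440 counts-per-million in H1703 with SAHA and 4010–4470 with DMSO, and to 1360–1580 in H1299 with SAHA and 592–618 with DMSO, where 1 marker was at 0 in every library. The 6 mesenchymal markers summed to 2430–2580 and 1650–1740 in H1703 with SAHA and with DMSO, and to 1960–2340 and 2960–3660 in H1299. A sum follows its most abundant genes. The median log2 fold change with SAHA over the epithelial markers tested was 0.2 in H1703 and 1.16 in H1299. For the mesenchymal markers it was 0.0 and 1.23, and for all genes 0.02 in each line. The epithelial sum in H1703 and the mesenchymal sum in H1299 thus fell while the median marker rose. The 6 leukocyte markers summed to 24.6–42.9 and 12.7–28.6 in H1703 with SAHA and with DMSO, and to 0.629–1.19 and 0.0604–0.903 in H1299. The 4 endothelial markers summed to 7.67–9.97 and 0.822–1.16 in H1703, and to 15–19.9 and 1.54–1.81 in H1299. The part of these shifts in the results was not tested. In bulk RNA, fewer cells with a transcript and less of it per cell cannot be told apart. A gene is called below when edgeR's quasi-likelihood test gave an adjusted p under 0.05 over all genes tested. The members were selected on the counts of these same contrasts (SAHA against DMSO in each line, and the lines under DMSO), so their fold changes are given as a description (log2 ± SE) with no p. The same holds for the difference of the SAHA effect between the lines, which is built from these contrasts. The 95% intervals given for some members are part of this description and test nothing.

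Per unit of length, WRAP53 and MDM2 were the 2 most abundant members in all 4 groups. In H1703 with SAHA the deposited FPKM (fragments per kilobase of gene, scaled to library size) averaged 3.18 ± 0.0329 for WRAP53, 2.16 ± 0.382 for MDM2, 0.272 ± 0.0497 for TP63, 0.134 ± 0.122 for MDM4 and 0.0159 ± 0.00702 for TP73 (SD, n = 3). In H1703 with DMSO the order was WRAP53 at 6.96 ± 0.0207, MDM2 at 3.74 ± 0.152, MDM4 at 0.504 ± 0.167, TP63 at 0.236 ± 0.0505 and TP73 at 0.0203 ± 0.00871. TP63 and MDM4 thus changed places, and with SAHA their libraries overlapped. In H1299 with SAHA the order was WRAP53 at 6.77 ± 0.0934, MDM2 at 1.87 ± 0.468, TP73 at 0.332 ± 0.119, MDM4 at 0.126 ± 0.0985 and TP63 at 0.00539 ± 0.00558. In H1299 with DMSO it was WRAP53 at 7.23 ± 0.593, MDM2 at 3.93 ± 0.464, TP73 at 0.873 ± 0.273 and MDM4 at 0.316 ± 0.241, with TP63 at 0. No libraries of WRAP53 and MDM2 overlapped within a group.

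**Figure D1:**
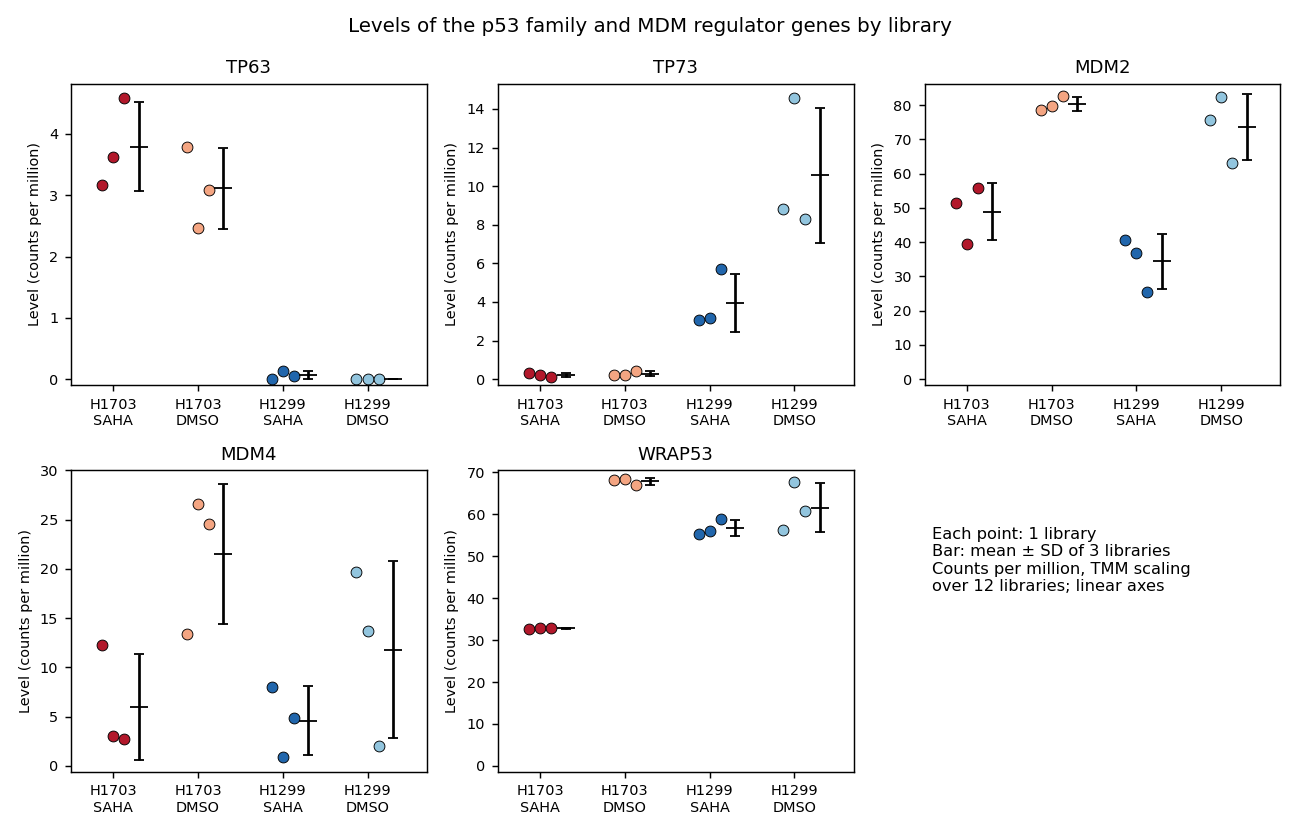
Level of each member in every library, in counts-per-million on linear axes, by line and treatment. Points are libraries and bars the mean ± SD of 3. WRAP53 libraries with SAHA lie near 33 in H1703 and 55.2 to 59.0 in H1299, whereas MDM4 libraries of one group spread widely.

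The transcription factors divided by line: TP63 was counted in H1703 and TP73 in H1299. TP63 had 48, 62 and 70 counts in H1703 with SAHA, against 59, 42 and 45 with DMSO. These groups overlapped, and the log2 fold change was 0.31 ± 0.23 (not called). TP63 had 0, 2 and 1 counts in H1299 with SAHA and 0 in each DMSO library, so that line was not tested for it. Under DMSO TP63 was therefore at least 45.9-fold higher in H1703 than in H1299 (146 counts in 3 libraries against 0, with 3 counts over the group as the floor).

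TP73 had 51, 50 and 98 counts in H1299 with SAHA, against 146, 246 and 147 with DMSO. Every SAHA library lay below every DMSO library. The level averaged 3.96 ± 1.51 counts-per-million with SAHA and 10.6 ± 3.49 with DMSO, a log2 fold change of -1.46 ± 0.31 (called). Within replicate numbers 1, 2 and 3 the log2 difference of TP73 was -1.50, -2.17 and -0.53. In H1703 it had 5, 4 and 2 counts with SAHA and 3, 4 and 6 with DMSO, too few to be tested. Under DMSO TP73 was 37.3-fold lower in H1703 than in H1299 (0.279 ± 0.116 against 10.6 ± 3.49 counts-per-million; log2 -5.22 ± 0.41, called).

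MDM2 was lower with SAHA in both lines. It had 778, 677 and 851 counts in H1703 with SAHA, against 1224, 1357 and 1208 with DMSO. H1299 libraries had 682, 587 and 438 counts with SAHA, against 1250, 1387 and 1117 with DMSO. Neither line had overlapping groups. MDM2 averaged 48.9 ± 8.45 counts-per-million with SAHA and 80.3 ± 2.13 with DMSO in H1703, a log2 fold change of -0.69 ± 0.13 (called). In H1299 it averaged 34.3 ± 7.91 with SAHA and 73.6 ± 9.74 with DMSO, a log2 fold change of -1.14 ± 0.18 (called). The difference between these effects, H1703 minus H1299, was 0.38 ± 0.23 and was not called, with a 95% interval from -0.08 to 0.84. Within replicate numbers the log2 differences of MDM2 were -0.57 to -1.30 over both lines. Under DMSO the MDM2 levels of H1703 and H1299 overlapped (log2 0.12 ± 0.16).

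MDM4 varied widely between replicates of one group. It had 185, 52 and 42 counts in H1703 with SAHA, against 208, 453 and 358 with DMSO. In H1299 it had 134, 15 and 83 counts with SAHA, against 326, 231 and 36 with DMSO. The groups were apart in H1703, although 185 counts with SAHA stood close to 208 with DMSO, and they overlapped in H1299. MDM4 averaged 6.01 ± 5.39 counts-per-million in H1703 with SAHA and 21.5 ± 7.11 with DMSO, a log2 fold change of -1.82 ± 0.70 (not called). Without H1703 SAHA replicate 1 the value was -2.87 ± 0.35 and was called, and with all libraries DESeq2 also called it, at -1.80 ± 0.75. In H1299 the level averaged 4.58 ± 3.53 with SAHA and 11.8 ± 8.98 with DMSO, a log2 fold change of -1.40 ± 1.05 (not called). Leaving out 1 library moved it from -2.05 (without H1299 SAHA replicate 1) to -0.83 (without H1299 DMSO replicate 1), and it was called in none of these fits. Within replicate numbers the MDM4 difference was -0.13, -3.08 and -3.10 in H1703 and -1.29, -3.70 and 1.20 in H1299, so 1 pair went the other way.

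MDM4 was among the genes with the widest spread between replicates. Its pooled within-group SD was 1.32 on the log2 scale, where the median of 13768 genes with a mean log2 level of 1 or more was 0.17. Only 40 of those genes (0.291%) had a larger within-group SD. MDM2 stood at 0.24, a value exceeded by 27.3% of genes, and WRAP53 at 0.07, exceeded by 94.9%. The ratio of MDM2 to MDM4 in FPKM followed the spread of MDM4: it was 8.36, 25.9 and 40.3 in H1703 with SAHA, against 11.7, 5.96 and 6.71 with DMSO. In H1299 it was 10.1, 77.8 and 10.5 with SAHA, against 7.63, 11.9 and 61.7 with DMSO. Both lines had overlapping ratios.

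WRAP53 was called lower with SAHA in H1703 and was not called in H1299. It had 495, 565 and 501 counts in H1703 with SAHA, against 1063, 1166 and 978 with DMSO. In H1299 it had 927, 889 and 1014 counts with SAHA, against 931, 1143 and 1076 with DMSO. The H1703 groups were far apart: 32.8 ± 0.114 counts-per-million with SAHA and 67.9 ± 0.803 with DMSO, a log2 fold change of -1.02 ± 0.08 (called). Both of these SDs are smaller than the counting error at such counts, so they understate the noise. The H1299 groups overlapped at 56.7 ± 1.98 and 61.6 ± 5.83, with a log2 fold change of -0.16 ± 0.09 (not called) and a 95% interval from -0.35 to 0.02. The SAHA effect differed between the lines by -0.93 ± 0.12, H1703 minus H1299, which was called. Within replicate numbers it was -1.06, -1.05 and -1.02 in H1703 and -0.03, -0.28 and -0.04 in H1299. Under DMSO the lines overlapped (log2 0.14 ± 0.08).

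**Figure D2:**
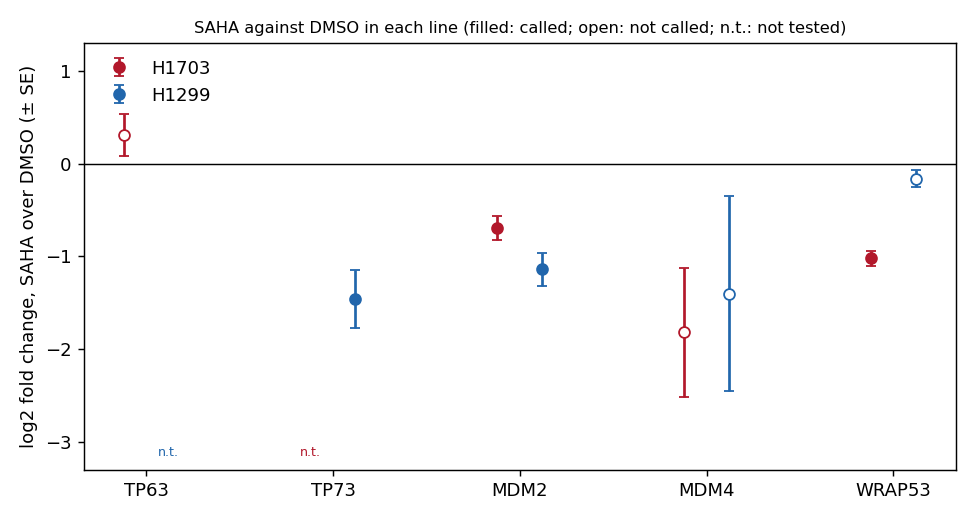
Log2 fold change of each member, SAHA over DMSO, in H1703 (red) and H1299 (blue), with the SE as bars. Filled points were called, open points were not, and n.t. marks a gene not tested. MDM2 lies at -0.69 and -1.14, WRAP53 at -1.02 and -0.16, and MDM4 has the widest bars (0.70 and 1.05).

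Most of the genes tested were called between SAHA and DMSO. In H1703 2 of 4 tested members were called, both lower, where 67.4% of 17273 genes were called, 34.7% higher and 32.6% lower. Non-overlapping groups were found for 3 of these members and for 72.2% of genes. In H1299 2 of 4 tested members were called, both lower, where 63.8% of 17277 genes were called, 33.3% higher and 30.4% lower. There 2 members and 69.4% of genes had groups that did not overlap. Between the lines under DMSO 1 member was called higher and 1 lower, where 66.5% of 19105 genes were called (34.3% higher and 32.2% lower). Groups did not overlap for TP63 and TP73, 2 of 5 members, and for 72.7% of genes. The SAHA effect differed between lines for 1 of 5 members, WRAP53, with the lower value in H1703, and for 34.9% of genes, of which those lower in H1703 made up 21.2% of all tested. The members were selected on these contrasts, so nothing is read from these shares.

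Several members share bases with other genes, and the labels name both a directional kit and an un-stranded library, so reads of overlapping genes may not have been told apart. In the tables' coordinates MDM2 shares 8490 bases at its 3′ end with the carboxypeptidase M gene, CPM, which GENCODE places on the minus strand. GENCODE ends MDM2 earlier, at position 68845544, so the shared stretch is shorter there. The CPM gene averaged 72.5 ± 5.4 counts-per-million in H1703 with SAHA and 18.9 ± 1.84 with DMSO (log2 1.96 ± 0.10, edgeR adjusted p = 2.7e-07). In H1299 it averaged 83.4 ± 2.62 with SAHA and 104 ± 1.69 with DMSO (log2 -0.37 ± 0.07, edgeR adjusted p = 0.002). The CPM gene therefore moved opposite to MDM2 in H1703 and the same way in H1299. Its part in the MDM2 counts was not tested.

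TP73 overlaps TP73-AS1, a minus-strand transcript, by 601 bases, and WRAP73, which encodes a WD40-repeat protein, by 242 bases. TP73-AS1 averaged 11.5 ± 1.45 counts-per-million in H1703 with SAHA and 17.6 ± 3.22 with DMSO (log2 -0.59 ± 0.16, edgeR adjusted p = 0.0087). In H1299 it averaged 16.6 ± 4.08 with SAHA and 29.2 ± 8.87 with DMSO (log2 -0.86 ± 0.25, edgeR adjusted p = 0.02). That call was lost without H1299 SAHA replicate 1 (edgeR adjusted p = 0.080) or replicate 3 (edgeR adjusted p = 0.057). TP73-AS1 was also lower in H1703 than in H1299 under DMSO (log2 -0.73 ± 0.22, edgeR adjusted p = 0.0099), a call lost without H1299 DMSO replicate 1 (edgeR adjusted p = 0.061). WRAP73 was not called for SAHA in H1703 (log2 -0.15 ± 0.11, edgeR adjusted p = 0.23) or in H1299 (0.02 ± 0.10, edgeR adjusted p = 0.86). Under DMSO WRAP73 was lower in H1703 than in H1299 (log2 -0.82 ± 0.10, edgeR adjusted p = 5.5e-06), the same direction as TP73, and its part in the TP73 counts was not tested.

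WRAP53 shares 301 bases at its start with AC087388.1, which was low in every group. AC087388.1 averaged 0.935 ± 0.521 counts-per-million in H1703 with SAHA and 1.69 ± 0.347 with DMSO (log2 -0.83 ± 0.40, edgeR adjusted p = 0.095). In H1299 it averaged 4.31 ± 0.513 with SAHA and 2.83 ± 0.256 with DMSO (log2 0.56 ± 0.19, edgeR adjusted p = 0.027). The SAHA effect on AC087388.1, H1703 minus H1299, was -1.46 ± 0.44 (edgeR adjusted p = 0.018), the same direction as that of WRAP53. The part of AC087388.1 in the WRAP53 counts was not tested. Other genes at the start of WRAP53 are not analysed here.

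**Figure D3:**
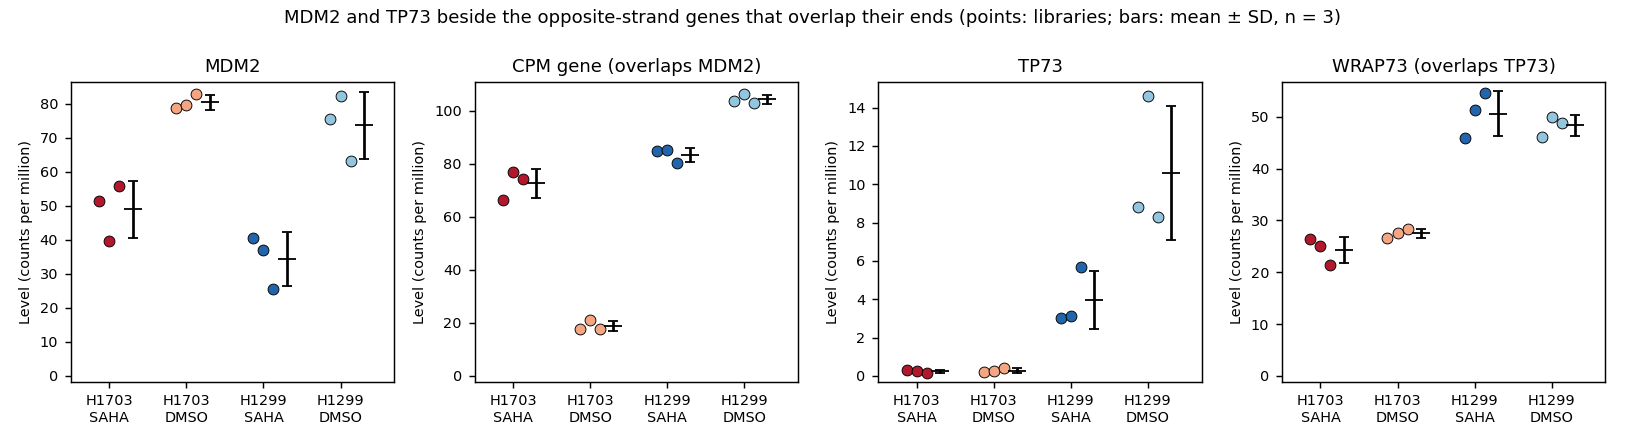
Levels of MDM2 beside the carboxypeptidase M gene and of TP73 beside WRAP73, in counts-per-million by group. Points are libraries and bars the mean ± SD of 3. The carboxypeptidase M gene is higher with SAHA in H1703 (72.5 against 18.9 on average), where MDM2 is lower.

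Genes driven by p53 included called genes of both directions. Of 32 p53 response genes tested in H1703, 15 were called higher and 10 lower with SAHA, where 34.7% of all genes were called higher and 32.6% lower, with a median log2 fold change of 0.10 where all genes had 0.02. CDKN1A, which encodes the CDK inhibitor p21, averaged 727 ± 34.5 counts-per-million with SAHA and 223 ± 6.23 with DMSO (log2 1.73 ± 0.07, edgeR adjusted p = 5.8e-08). BBC3, which encodes the pro-apoptotic protein PUMA, rose by 1.94 ± 0.15 on the log2 scale and the stress kinase gene PLK3 by 1.61 ± 0.11. The death receptor gene FAS was called lower at -1.31 ± 0.21, as was SESN1, a regulator of mTORC1, at -0.88 ± 0.13. In H1299 SESN1 was at 0.20 ± 0.11 and was not called, whereas BBC3 (1.13 ± 0.17), PLK3 (0.65 ± 0.15) and FAS (-0.78 ± 0.25) were called in the same direction as in H1703.

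In H1299 14 of 29 tested response genes were called higher and 8 lower, where 33.3% of all genes were called higher and 30.4% lower. The list's median was 0.53 and that of all genes 0.02. CDKN1A again rose, by 2.06 ± 0.10 on the log2 scale. CYFIP2, an actin regulator, rose by 3.37 ± 0.27, BTG2, an antiproliferative gene, by 2.45 ± 0.25, and the kinase gene PLK2 by 2.32 ± 0.09. CCNG1, which encodes cyclin G1, was called lower at -0.98 ± 0.08, the polymerase gene POLH at -0.85 ± 0.14 and the apoptosome gene APAF1 at -0.82 ± 0.11. BTG2, CCNG1 and APAF1 were not called in H1703, at -0.05 ± 0.14, -0.24 ± 0.10 and -0.04 ± 0.11. CYFIP2 (0.90 ± 0.07), PLK2 (0.63 ± 0.07) and POLH (-0.68 ± 0.11) were called there in the same direction as in H1299.

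Among the tested genes of the squamous programme linked to p63, most were called higher with SAHA in both lines. Of the list's 18 entries 10 were tested in H1703 and 11 in H1299. The part of TP63 in these changes was not tested. In H1703 7 of 10 tested genes were called higher and 2 lower (all genes 34.7% and 32.6%), with a median of 0.87. The desmosome-associated gene PERP rose by 1.14 ± 0.07, the adhesion gene NECTIN1 by 0.98 ± 0.09 and the Notch ligand gene JAG1 by 0.76 ± 0.08 on the log2 scale. SOX2, a lineage factor of squamous lung cancer, averaged 5.25 ± 1.06 counts-per-million with SAHA and 40.1 ± 2.0 with DMSO (log2 -2.91 ± 0.15, edgeR adjusted p = 2.5e-07). The integrin gene ITGB4 fell by 0.59 ± 0.08.

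In H1299 8 of 11 tested squamous genes were called higher and 2 lower (all genes 33.3% and 30.4%), with a median of 1.64. SFN, which encodes 14-3-3 sigma, rose by 3.37 ± 0.20, NECTIN1 by 2.30 ± 0.16 and JAG1 by 1.64 ± 0.11 on the log2 scale. ITGB4 fell by 0.77 ± 0.15. PERP was called higher in H1299 too, at 0.47 ± 0.07, as was SFN in H1703, at 0.41 ± 0.12. BNC1, a keratinocyte factor, was also called lower at -0.32 ± 0.12 (edgeR adjusted p = 0.048), with edgeR or DESeq2 adjusted p from 0.036 to 0.37 under the alternatives. SOX2 was at -0.28 ± 0.20 (edgeR adjusted p = 0.25). The basal keratin genes KRT5, KRT14, KRT6A and KRT17, and DSG3, CLCA2 and PKP1, were too low to be tested in either line.

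Among genes that modify p53 or the MDM proteins, 5 of 26 were called higher and 11 lower in H1703 (all genes 34.7% and 32.6%), with a median of -0.09. In H1299 5 of 27 were called higher and 15 lower (all genes 33.3% and 30.4%), with a median of -0.37. The checkpoint kinase gene CHEK1 had a log2 fold change of -2.13 ± 0.16 in H1703 and -1.44 ± 0.13 in H1299, called in both. MTBP, which encodes an MDM2-binding protein, was at -2.02 ± 0.19 in H1703 and -1.93 ± 0.17 in H1299, called in both. CHEK2 was at -1.64 ± 0.19 in H1703 and -0.93 ± 0.12 in H1299, called in both. ATM, the kinase that signals DNA breaks, was at -1.12 ± 0.16 in H1703 and -2.11 ± 0.27 in H1299, also called in both. USP2, a deubiquitinase that stabilises MDM2, rose by 2.70 ± 0.18 in H1703 and by 1.95 ± 0.12 in H1299. RPL11, a ribosomal protein that binds MDM2, rose by 0.89 ± 0.13 in H1703 and by 0.67 ± 0.10 in H1299, and PPP1R13L (iASPP), an inhibitor of p53, by 0.66 ± 0.11 and 0.44 ± 0.09.

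Among genes of telomerase, Cajal bodies and telomere ends, 4 of 20 were called higher and 8 lower in H1703 (all genes 34.7% and 32.6%), with a median of -0.15. In H1299 0 of 20 were called higher and 10 lower (all genes 33.3% and 30.4%), with a median of -0.24. DKC1, which encodes dyskerin of the telomerase particle, averaged 44.8 ± 1.32 counts-per-million with SAHA and 92.5 ± 1.06 with DMSO in H1703 (log2 -1.02 ± 0.07). In H1299 DKC1 averaged 81.4 ± 4.01 with SAHA and 178 ± 8.55 with DMSO (log2 -1.17 ± 0.08) and was called lower in both lines. COIL, which encodes the Cajal body scaffold coilin, was at -1.48 ± 0.10 in H1703 and -1.15 ± 0.09 in H1299, called in both. The shelterin gene ACD was at -1.05 ± 0.13 in H1703 and -0.59 ± 0.10 in H1299, called in both. NHP2 of the telomerase particle was at -1.02 ± 0.11 in H1703 and -0.86 ± 0.10 in H1299, also called in both. TEP1 rose by 0.58 ± 0.13, TERF2IP by 0.55 ± 0.08 and NOP10 by 0.37 ± 0.10 in H1703. In H1299 TERF2IP and NOP10 were called the other way, at -0.30 ± 0.08 and -0.39 ± 0.10 (edgeR adjusted p = 0.0067 and 0.0061), and TEP1 was at 0.01 ± 0.17.

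**Figure D4:**
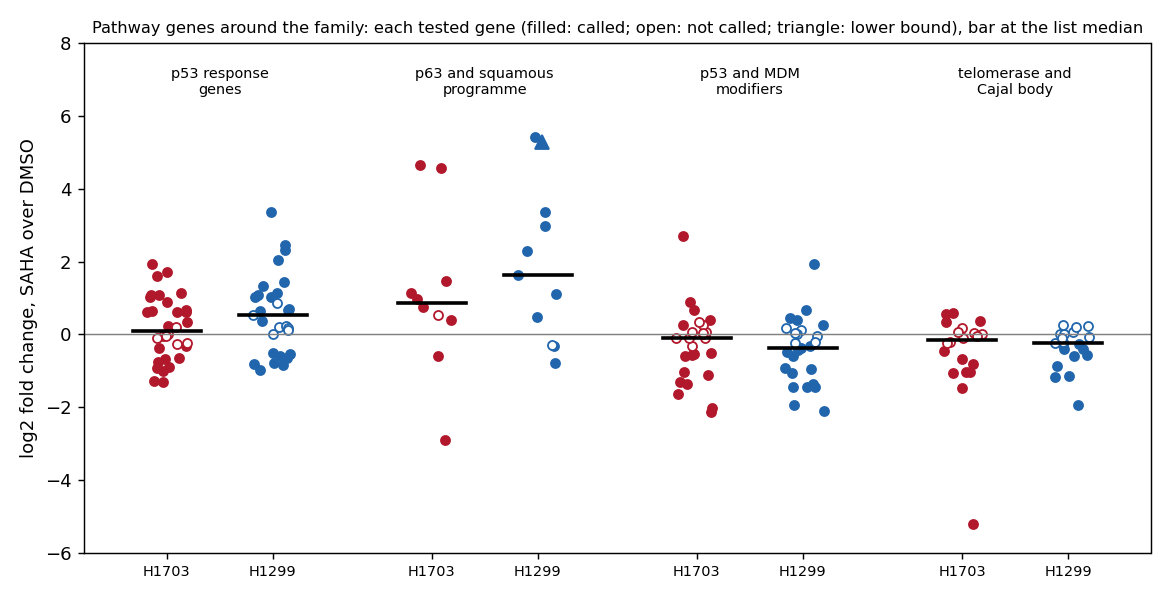
Log2 fold changes, SAHA against DMSO, of the tested genes of the 4 pathway lists in each line. Points are genes (filled where called) and the bar is the list's median. The triangle is TRIM29 in H1299, at 0 counts with DMSO and drawn at its lower bound of 5.28. Medians include 0.87 in H1703 and 1.64 in H1299 for the squamous list.

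The genes with levels most like those of each member over the 12 libraries were found by the root mean square (RMS) difference of log2 levels, each gene centred on its own mean. For MDM2 they were MSH3 at 0.15, NR2C2 at 0.15 and SNTB2 at 0.16, where MDM2's own RMS around its mean was 0.54. For WRAP53 they were CHFR, ATF4 and UCK2, each at 0.09, against its own 0.41. MDM4 had no close match: QSER1 and FNTB differed by 0.93 and RFX7 by 0.95, against its own 1.45. TP63 and TP73 were too low for the measure.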

How the data were processed

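Polyadenylated RNA of H1703 and H1299 was sequenced in 12 libraries, 3 per group. The authors deposited 1 table per line with, per the file headers, raw read counts and FPKM values for each library. Per the submitters' processing notes, the tools were HISAT2 2.1.0, StringTie 1.3.3b, edgeR 3.30.3, fastp and FastQC 0.11.9 on GRCh38, with no roles given. Deposited FPKM divided by count over column total lay within 1% of the gene's median over the 12 libraries. This held for 100.0% of 201185 values with a count of at least 10, and gene length itself was not checked.

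Here the counts went through edgeR 4.0.16 (R 4.3.3): genes were kept by filterByExpr (a count of at least 10 in enough libraries and a total of at least 15), scaled by TMM and tested by robust quasi-likelihood. P-values were adjusted by Benjamini-Hochberg across all genes tested in a comparison, and a gene was called under 0.05. Each line was fitted alone. The difference between lines under DMSO and that of the SAHA effect came from 1 fit over 12 libraries. Levels are TMM-scaled counts-per-million, mean ± SD of 3. SE of a fold change is the fold change over the root of F. A 95% interval is the fold change ± that SE times a normal quantile. With so few libraries such an interval is too narrow.

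Total counts were 14.4M to 19.4M, and every replicate pair differed by more than sampling noise (chi-square over degrees of freedom 10.93 to 24.7). Control columns were assigned to DMSO. The labels give the replicate number under a batch tag, so a paired fit was run as an alternative. Deviations of same-numbered libraries correlated by -0.03 to 0.05 and those of other pairs by -0.06 to 0.06, so the data show no pairing. Floors cover counting error only.

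The members and lists were chosen with earlier results of these data known. Named genes were the members, the 3 called genes with the largest change per list, line and direction with a mean log2 level of 1 or more, CDKN1A and SOX2, genes overlapping a member, and the 3 genes most like each member. All 97 list entries matched a symbol, 1 of them by its newer symbol. A few genes taken by this rule are not reported here. Alternatives were RLE size factors, library totals, no low-count filter, DESeq2 1.42.0, the replicate block and leaving out each library. Code was tested on simulated data.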

Additional observations from a re-analysis of the deposited data

Results flagged for a closer look

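The response of WRAP53 to SAHA differed between the lines: its log2 fold change in H1703 minus that in H1299 was -0.93 ± 0.12. This difference was called in the edgeR interaction over 12 libraries, where 34.9% of 19105 genes were called. WRAP53 was selected on the SAHA contrasts that make up the difference, so the value is a description. WRAP53 was at 32.7 to 33.0 counts-per-million in H1703 with SAHA and 67.0 to 68.4 with DMSO, against 55.2 to 59.0 in H1299 with SAHA and 56.2 to 67.8 with DMSO.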

How the results depend on the processing

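Of the members' values under the alternatives run, 206 kept their direction and side of the threshold, 4 changed direction and 2 became called. MDM4 in H1703 was called with DESeq2 (-1.80), and leaving out each library gave -2.87 to -1.48, called without SAHA replicate 1. In H1299 MDM4 ran from -2.05 to -0.83 over left-out libraries, never called. With library totals alone, MDM2 and WRAP53 between the lines under DMSO turned to -0.07 and -0.06, neither called, as the median of all genes moved to -0.17. The MDM4 difference of effects, H1703 minus H1299, ran from -1.54 to 0.16 over left-out libraries, and WRAP73 in H1299 from -0.05 to 0.09, none called. Squamous genes called lower in H1299 numbered 1 in place of 2 with RLE, library totals, no filter, DESeq2, the replicate block and 1 fit over 12 libraries, and 1 to 2 over left-out libraries. Telomerase and Cajal body genes called higher in H1299 numbered 2 in place of 0 with library totals. With the replicate block (paired by number) MDM2 was at -0.71 in H1703 and -1.16 in H1299, WRAP53 at -1.02 and -0.16, TP73 at -1.46 in H1299 and MDM4 at -2.06 and -1.26. No member's call changed. The cause of these shifts was not tested. Low counts limit TP63 in H1299 and TP73 in H1703.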

Other observations

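TERT, the catalytic subunit gene of telomerase, was chosen after its values had been seen, so its levels are given with no test. TERT is also part of the telomerase and Cajal body list, where the counts called lower include it in both lines. It averaged 0.109 ± 0.136 counts-per-million in H1703 with SAHA and 4.28 ± 0.366 with DMSO (SD, n = 3). In H1299 TERT averaged 1.03 ± 0.528 with SAHA and 3.90 ± 0.957 with DMSO.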
